A study of Homo sapiens with 12 samples.

Results

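Activator protein 1 (AP-1) is a family of paired transcription factors, and 10 of its genes, or of the small MAF genes close to it, were followed here in the A549 lung cancer cell line. They were chosen by name, with earlier results of these data known: JUN, JUNB and JUND of the JUN family, FOS, FOSL1 and FOSL2 of the FOS family, ATF3, BATF3, and the small MAF genes MAFF and MAFK. The rule uses no measured value, and all 10 were found among the 25433 genes listed in the 2 count tables. A549 is a human line with features of the alveolar epithelium, grown from a lung adenocarcinoma. The first group received 10 ng/mL TGF-β1, a growth factor under which epithelial cells take on mesenchymal traits, with 40 mM sodium acetate, the salt of a short-chain fatty acid. The second group received 10 ng/mL TGF-β1 without acetate, and the third was the control without either. Each of the 3 groups had 4 libraries of total RNA, taken after 2 days, and no group with acetate but no TGF-β1 was analysed here. All groups are the same unmodified line. Separate cultures behind the libraries of a group are not stated, so that p-values reflect the spread of these libraries alone, which could be technical.

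AP-1 proteins share a basic region that touches DNA and a leucine zipper that holds 2 proteins together, and they bind short palindromes as pairs. JUN proteins pair with themselves or with FOS proteins, while FOS proteins need a JUN partner. ATF3 and BATF3 pair with JUN proteins as well, and the small MAFs, which lack an activating domain, pair with NRF2 (NFE2L2) and its relatives at antioxidant response elements. MAP kinases raise the activity and the transcription of many AP-1 genes, and SMAD proteins, the messengers of the TGF-β receptor, can bind next to AP-1 at shared target genes.

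RefSeq start windows (GRCh38.p14), running from 250 bases before to 50 bases after a gene's start, were at hand for 7 of the 10 genes, as 9 of 35116 windows; FOSL1, BATF3 and MAFK are only named. Stretches are shown because several of these genes carry the very kind of element that AP-1 and CREB/ATF pairs bind. Capitals mark the match to TGACNTCA, the cyclic AMP response type of element, or to TGANTCA, the AP-1 element, in the gene's own strand.
JUN: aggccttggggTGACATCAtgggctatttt
ATF3: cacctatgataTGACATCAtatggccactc
JUND: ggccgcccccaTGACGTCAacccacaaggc
MAFF: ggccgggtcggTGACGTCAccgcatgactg
FOSL2: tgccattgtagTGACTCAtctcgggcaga

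The JUN stretch lies at chr1:58784096-58784125 on the minus strand, with its match 67 bases before the RefSeq start (position -67), and inside an exon of the longer gene model of GENCODE 29. For ATF3 the stretch is chr1:212565273-212565302 on the plus strand (position -123) and for JUND chr19:18281804-18281833 on the minus strand (position -200), both outside the gene. The MAFF stretch, chr22:38201929-38201958 on the plus strand (position -54), is exonic in the GENCODE model, and the FOSL2 stretch, chr2:28392851-28392879 on the plus strand, begins its match at position 4 and is partly exonic. Both strands were searched. TGACNTCA was present in 4 of the 9 windows of these genes and in 7.72% of all windows, and TGANTCA in 1 of the 9 and in 7.71%. The antioxidant response core TGACNNNGC, which can cover letters of either of the other elements, was found for JUND and MAFF, and in 13.3% of all windows. None of these matches overlapped a match printed above. The JUND match GCGACGTCA at position -90 nevertheless holds GACGTCA, letters that TGACGTCA holds as well. No match was found in the 9 windows for the ATF and C/EBP element TGATGNAAT (0.991% of all windows). The SMAD motifs CAGACA (16.9%) and GTCTAGAC (0.202%) had no match there either. Other forms of SMAD site were not searched, so whether these genes carry one was not tested. For the CArG box of the serum response factor, only a single restricted pattern was searched, again without a match (1.2% of all windows). Other forms of that box, and bases outside the windows, were not searched. Whether these genes carry a CArG box was therefore not tested. JUN and ATF3 carried the same 8 letters, and JUND and MAFF shared another 8. After TGF-β1, JUN and ATF3 moved in opposite directions (log2 fold changes 1.11 and -2.68), while JUND and MAFF both fell (-0.52 each). The part of these matches in the levels was not tested. A match is a stretch of letters and says nothing about occupancy in these cells.

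Total counts per library ran from 34698057 to 41575904 with TGF-β1 plus acetate, from 37202599 to 53936023 with TGF-β1 and from 38400896 to 53055990 in the control. The count columns carry codes in place of sample names, and each was placed in its group through the tables that hold it; every comparison rests on that placement. All 6 epithelial markers were in the tables, with a summed level of 6675 to 7669 CPM (counts scaled to the size of the library) with acetate, 5581 to 6166 with TGF-β1 and 6038 to 6281 in the control. Keratins carried most of that sum, and singly 4 of the 6 fell after TGF-β1 and all 6 were higher with acetate added. CDH1 (E-cadherin) averaged 45.5 CPM with acetate, 1.46 with TGF-β1 and 58.7 in the control (log2 fold changes -5.32 after TGF-β1 and 4.97 with acetate added). Of the other cell types, 4 of 4 fibroblast markers were listed, at 18.1 to 20.9 CPM in sum with acetate, 7.05 to 8.60 with TGF-β1 and 0.771 to 1.14 in the control. LUM alone had 15.3 CPM with acetate. Singly, 3 of the 4 were higher with acetate added to TGF-β1, and PDGFRB was lower (log2 fold change -1.11). Immune markers were listed for 2 of 6 genes (CD14 and CD68), at 23.9 to 25.3 CPM with acetate, 13.3 to 16.6 with TGF-β1 and 11.9 to 14.6 in the control, and the 4 endothelial and 2 erythroid markers for none. SFTPA1 and NKX2-1, markers of alveolar type 2 cells, were not in the tables. The other 4 summed to 244 to 264 CPM with acetate, 136 to 144 with TGF-β1 and 121 to 126 in the control. SFTPC entered that sum in the acetate group only. LPCAT1 (166 CPM with acetate) and ABCA3 (89.6) carried nearly all of it, beside SFTPB at 0.307 and SFTPC at 0.387. The part of these marker levels in the AP-1 results was not tested. In bulk RNA, fewer cells of a kind and less RNA per cell cannot be told apart.

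All 10 genes passed the filter on low counts in each of the 3 comparisons. After TGF-β1, 4 rose, 4 fell and 2 did not pass edgeR's quasi-likelihood test at an adjusted p of 0.05, against 34.1% of all tested genes called higher and 32.8% called lower. The TGF-β1 and control libraries did not overlap for 8 of the 10, against 61.4% of all genes. With acetate added to TGF-β1, 3 were higher, 5 lower and 2 not called, where 33.3% of all genes were higher and 30.4% lower, and 7 of the 10 did not overlap, against 56.6%. For TGF-β1 plus acetate against control the counts were 4 higher, 5 lower and 1 not called, beside 36.1% higher and 34.4% lower over all genes, and 8 of the 10 did not overlap, against 64%. The median log2 fold change over the 10 genes was -0.23 after TGF-β1, -0.05 with acetate added and 0.00 for TGF-β1 plus acetate against control, and over all genes 0.02, 0.03 and 0.02. Calls among the 10 genes were thus not far from the background in number, and the values below describe which AP-1 genes went up or down, and how far. The comparisons share libraries, so a library's deviation enters more than one of them.

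**Figure D1:**
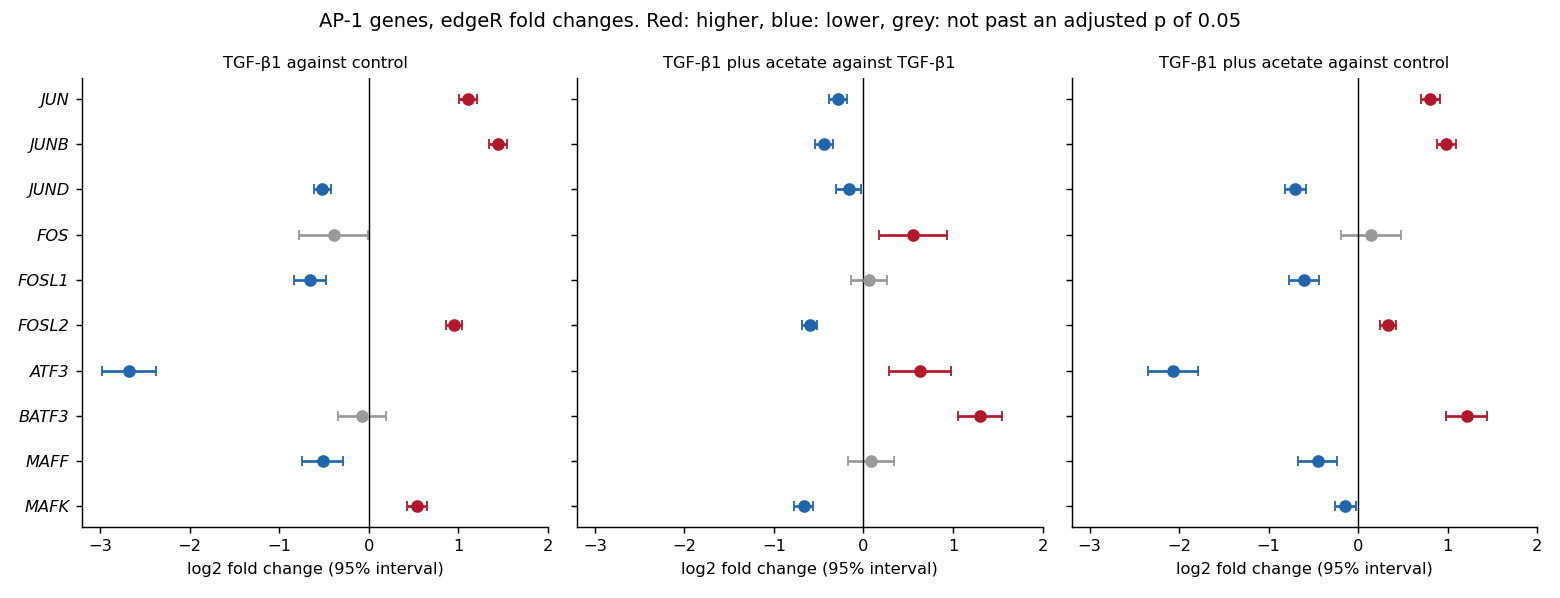
Fold changes of the 10 AP-1 genes on the log2 scale (horizontal axis), from edgeR, with 95% intervals, in the 3 comparisons; red and blue points are calls higher and lower at an adjusted p of 0.05 and grey points were not called. ATF3 lies farthest to the left after TGF-β1 (-2.68), JUNB farthest to the right (1.44), and BATF3 farthest to the right when acetate was added (1.30).

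JUN, the founding member and a partner of nearly every other AP-1 protein, lies on chromosome 1 (chr1:58780788-58784327, hg38). Its level was 70.3, 63.1, 67.8 and 65.85 CPM with TGF-β1 plus acetate, 75.8, 79.6, 89.5 and 82.8 CPM with TGF-β1, and 38.5, 39.5, 37.5 and 37.1 CPM in the control. The 3 groups did not overlap, with the control libraries lowest and those with TGF-β1 without acetate highest. JUN rose 2.16-fold after TGF-β1 (log2 fold change 1.11, SE 0.05, adjusted p = 2.7e-12). With acetate it was 1.22-fold lower than with TGF-β1 (log2 fold change -0.29, SE 0.05, adjusted p = 9.5e-05) and still 1.75-fold above control (adjusted p = 1.5e-11).

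JUNB, a JUN protein that activates less strongly than JUN and restrains it at many promoters, stands on chromosome 19 (chr19:12791496-12793315). It had 184, 166, 184 and 168 CPM with TGF-β1 plus acetate, 219.9, 248, 248 and 245 CPM with TGF-β1, and 82.8, 93.0, 86.8 and 91.8 CPM in the control. Again no library of one group reached the range of another, and the order of the groups was that of JUN. JUNB rose 2.72-fold after TGF-β1 (log2 fold change 1.44, SE 0.05, adjusted p = 7.3e-14), the most of the 10 genes in that comparison. With acetate it was 1.36-fold lower than with TGF-β1 (log2 fold change -0.44, SE 0.05, adjusted p = 5.2e-07), and 1.98-fold above control (adjusted p = 1.1e-12). The exons of JUNB share 259 bases, 14.2% of their length, with HOOK2 on the opposite strand, and HOOK2 had log2 fold changes of 1.17 after TGF-β1, -0.20 with acetate added and 0.95 for TGF-β1 plus acetate against control. The libraries keep the strand, but the counter's strand setting is not given in the sources used here, and the part of shared reads was not tested.

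JUND, the JUN protein that is usually present in resting cells and turned over slowly, went the other way (chr19:18279760-18281622). Its levels were 25.97, 22.96, 23.8 and 20.49 CPM with TGF-β1 plus acetate, 24.7, 27.9, 26.6 and 26.1 CPM with TGF-β1, and 38, 36.3, 37.9 and 39.04 CPM in the control. All 8 treated libraries lay below every control library, while the 2 treated groups overlapped. JUND fell after TGF-β1 (log2 fold change -0.52, SE 0.04, adjusted p = 2.1e-08) and was 1.62-fold lower with acetate than in the control (log2 fold change -0.70, SE 0.06, adjusted p = 1.8e-09). The call of acetate below TGF-β1 (log2 fold change -0.17, SE 0.06, adjusted p = 0.034) was lost with library totals as the scale (-0.04, adjusted p = 0.63) and without TGF-β1 library S16 (adjusted p = 0.055) or acetate library S23 (0.068) or S25 (0.12).

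**Figure D2:**
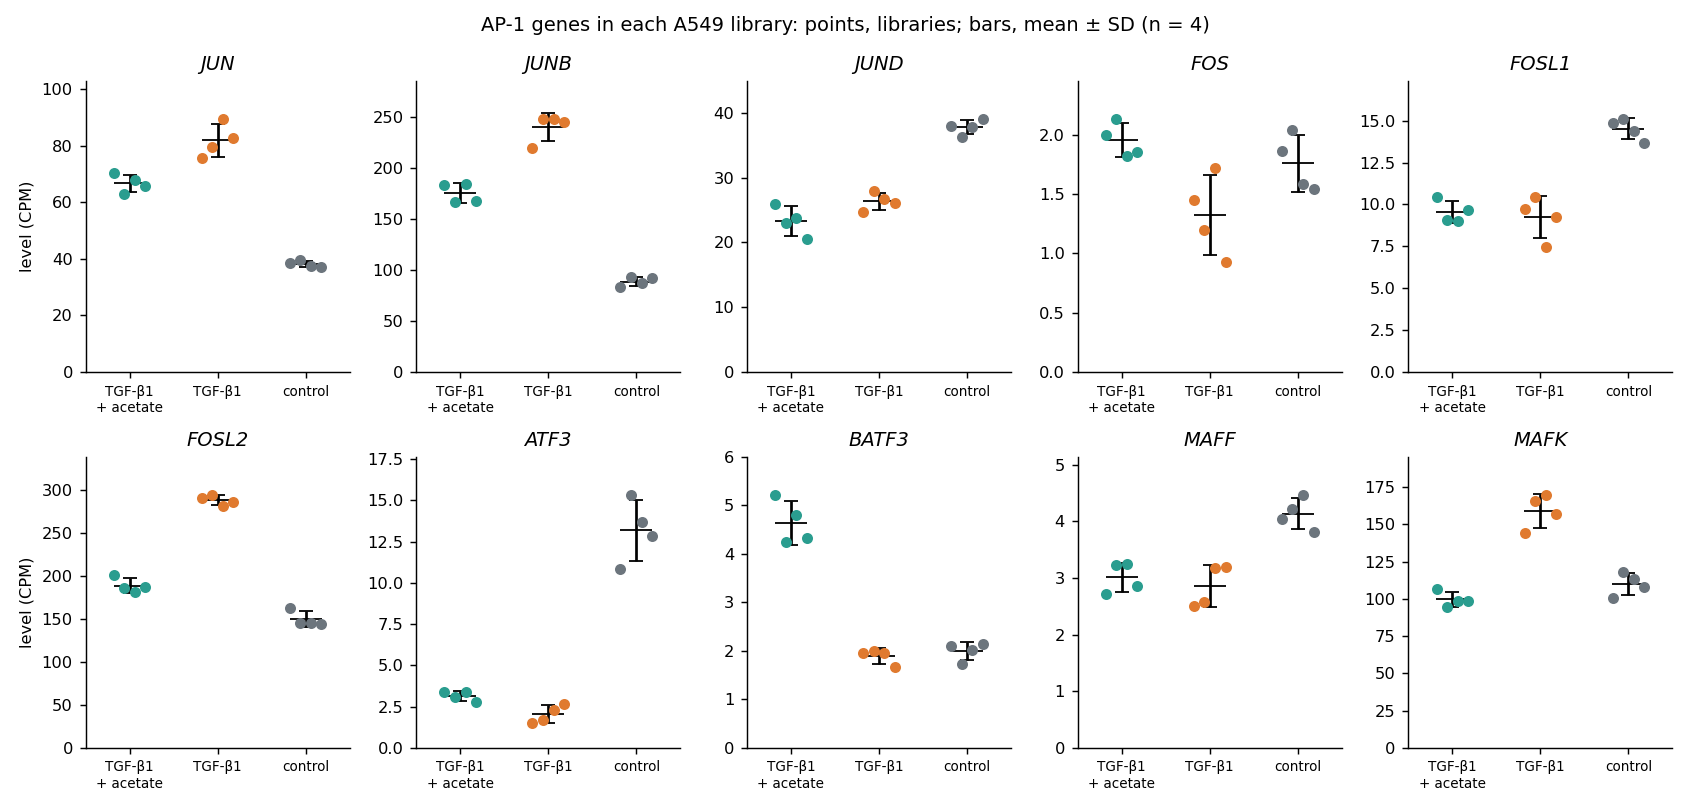
Level in CPM (vertical axis, from 0) of each of the 10 AP-1 genes in every library; points are libraries, bars the mean ± SD of 4 libraries per group, with TGF-β1 plus acetate at the left, TGF-β1 in the middle and control at the right. JUN, JUNB, FOSL2 and MAFK are highest in the middle group, ATF3 stands high in the control at 10.85 to 15.35 CPM, and BATF3 stands high with acetate at 4.24 to 5.22 CPM.

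Among the FOS genes, FOSL2, which encodes FRA-2, was the abundant one (chr2:28392448-28417312). It had 201, 186, 182 and 187 CPM with TGF-β1 plus acetate, 290.2, 295, 282 and 286 CPM with TGF-β1, and 163, 145, 145 and 144 CPM in the control. The groups were fully apart, with TGF-β1 without acetate highest and the control lowest. FOSL2 rose 1.93-fold after TGF-β1 (log2 fold change 0.95, SE 0.04, adjusted p = 3.6e-12) and was 1.52-fold lower with acetate than with TGF-β1 (log2 fold change -0.60, SE 0.04, adjusted p = 1.2e-09). Against control, the acetate libraries were 1.26-fold higher (log2 fold change 0.33, SE 0.04, adjusted p = 8.5e-07).

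FOSL1 encodes FRA-1, which is known for its high level in many invasive carcinoma lines (chr11:65892049-65900573). It had 10.4, 9.05, 9.03 and 9.66 CPM with TGF-β1 plus acetate, 9.76, 10.4, 7.48 and 9.28 CPM with TGF-β1, and 14.9, 15.1, 14.4 and 13.7 CPM in the control. Every treated library lay below every control library, and the 2 treated groups covered the same range. FOSL1 fell 1.57-fold after TGF-β1 (log2 fold change -0.66, SE 0.08, adjusted p = 2.7e-06) and stood 1.52-fold below control with acetate (log2 fold change -0.61, SE 0.08, adjusted p = 1.8e-06). The effect of adding acetate was not called, and its 95% interval on the log2 scale ran from -0.14 to 0.26 (adjusted p = 0.57). FOSL1 and FOSL2, 2 FOS proteins that lack the strong activating domain of FOS, thus went in opposite directions after TGF-β1.

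FOS is the classic immediate early gene that peaks within the first hour after a stimulus and then decays (chr14:75278774-75282230). At 2 days FOS was scarce in all groups, the control included, and no earlier time was sampled. It was read 72 to 82 times per library with TGF-β1 plus acetate, 38 to 87 times with TGF-β1 and 62 to 100 times in the control. This made 2.00, 2.13, 1.82 and 1.85 CPM with TGF-β1 plus acetate, 1.45, 1.20, 1.72 and 0.925 CPM with TGF-β1, and 1.86, 2.04, 1.58 and 1.54 CPM in the control. All acetate libraries lay above all TGF-β1 libraries, and the control overlapped both. FOS was 1.47-fold higher with acetate than with TGF-β1 (log2 fold change 0.55, SE 0.18, adjusted p = 0.013), a call that was lost without TGF-β1 library S18 (0.39, adjusted p = 0.051). TGF-β1 against control gave a log2 fold change of -0.39 (SE 0.18, adjusted p = 0.066), which passed the threshold in 5 of 14 alternatives, with adjusted p from 0.015 to 0.21 over them. Those 5 were library totals (0.024), the fit of all 12 libraries (0.045) and leaving out control library S3 (0.048), S4 (0.041) or TGF-β1 library S17 (0.015). In the authors' deposited table this comparison has a log2 fold change of -0.40, a p-value of 0.0403 and a q-value of 0.0148. Between acetate and control the interval ran from -0.19 to 0.48 on the log2 scale (adjusted p = 0.43).

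The proportions within the JUN and FOS families moved with these changes. Per kilobase of exon, JUNB made up 75.4% ± 0.505 (SD, n = 4) of the summed JUN family level with TGF-β1 plus acetate, 78.0% ± 0.459 with TGF-β1 and 61.0% ± 1.38 in the control. The share of JUND was 9.78% ± 0.594 with acetate, 8.35% ± 0.261 with TGF-β1 and 25.5% ± 1.152 in the control, so that neither treated group reached the control's range. The share of JUN was 14.8% ± 0.367 with acetate, 13.7% ± 0.595 with TGF-β1 and 13.5% ± 0.574 in the control, with overlap between TGF-β1 and control. The family's summed level was 128 ± 7.12 CPM per kb with acetate, 169 ± 9.27 with TGF-β1 and 79.8 ± 2.501 in the control.

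Among the 3 FOS genes followed here, without FOSB, which is described below, FOSL2 held 82.3% ± 0.322 (SD, n = 4) with TGF-β1 plus acetate, 88.4% ± 1.01 with TGF-β1 and 71.7% ± 1.21 in the control. FOSL1 held 15.8% ± 0.431 with acetate, 10.7% ± 1.18 with TGF-β1 and 26.4% ± 1.06 in the control. FOS held 1.88% ± 0.143 with acetate, 0.899% ± 0.248 with TGF-β1 and 1.86% ± 0.219 in the control. The ranges of all 3 groups were apart for FOSL2 and FOSL1. The acetate group lay between the TGF-β1 group and the control for both genes. Among the small MAFs followed here, MAFK accounted for 97.7% of the summed level of MAFK and MAFF with acetate, 98.6% with TGF-β1 and 97.1% in the control; MAFG, described below, is not in this sum. These shares are of RNA, not of protein, and differences between shares were not tested.

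**Figure D3:**
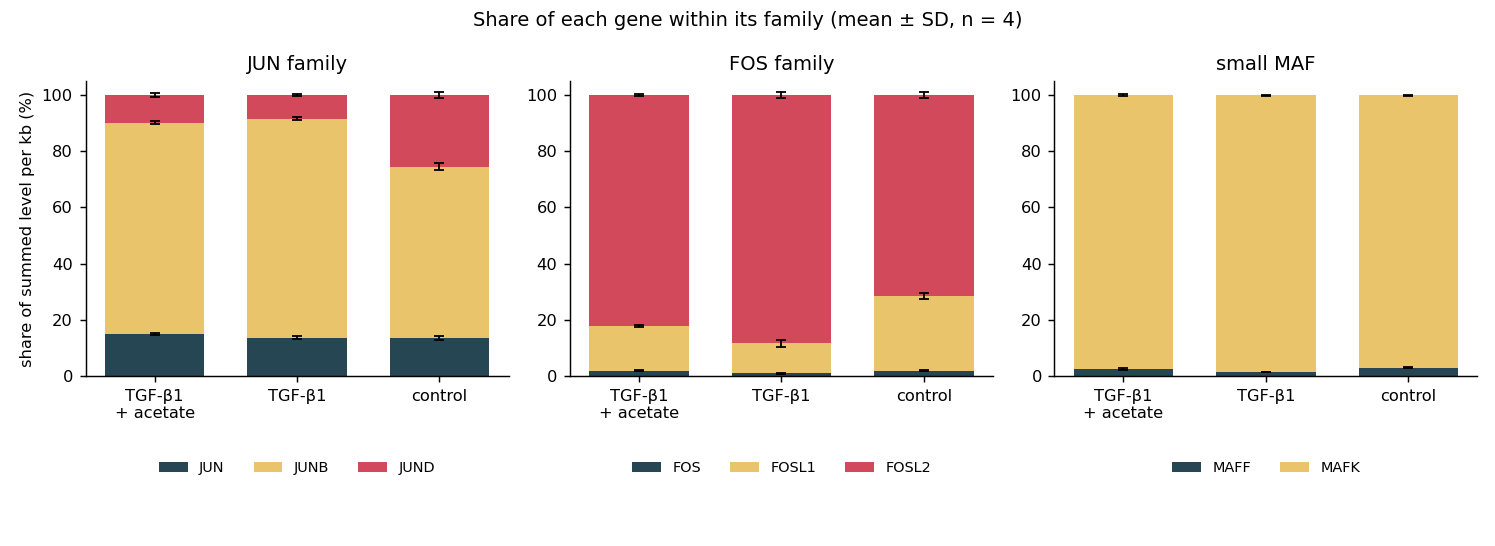
Share of each gene in the summed level per kb of exon (vertical axis, percent) of its family, as means of 4 libraries with SD bars; TGF-β1 plus acetate at the left, TGF-β1 in the middle and control at the right of each panel. The JUND band is 9.78% and 8.35% with treatment and 25.5% in the control, and the FOSL1 band is 15.8%, 10.7% and 26.4%.

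ATF3, a stress-induced factor that represses transcription as a pair with itself and can activate together with JUN, had the largest change of the 10 genes (chr1:212565334-212620777). Its levels were 3.39, 3.07, 3.36 and 2.77 CPM with TGF-β1 plus acetate, 1.47, 1.68, 2.31 and 2.65 CPM with TGF-β1, and 10.85, 15.35, 13.7 and 12.9 CPM in the control. The control libraries stood far above both treated groups, and each acetate library was above each TGF-β1 library. ATF3 fell 6.39-fold after TGF-β1 (log2 fold change -2.68, SE 0.14, adjusted p = 5.0e-11) and was 4.19-fold below control with acetate (log2 fold change -2.07, SE 0.13, adjusted p = 3.7e-11). With acetate it was 1.55-fold higher than with TGF-β1 (log2 fold change 0.63, SE 0.16, adjusted p = 0.003). In the authors' deposited tables the first and last of these log2 fold changes are -2.69 and 0.64.

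BATF3 is a small partner of JUN proteins without an activating domain, known in mice for its need in dendritic cell development, and it was low in all libraries (chr1:212686418-212699985). It had 5.22, 4.24, 4.80 and 4.33 CPM with TGF-β1 plus acetate, 1.96, 2.00, 1.95 and 1.66 CPM with TGF-β1, and 2.11, 1.735, 2.02 and 2.14 CPM in the control. Each acetate library lay above every library of both other groups, which overlapped. BATF3 was 2.47-fold higher with acetate than with TGF-β1 (log2 fold change 1.30, SE 0.11, adjusted p = 7.0e-08) and 2.32-fold higher than in the control (log2 fold change 1.21, SE 0.11, adjusted p = 7.2e-09). TGF-β1 without acetate gave no call against control, with an interval from -0.34 to 0.19 on the log2 scale (adjusted p = 0.61). Counts behind these values were 163 to 203 per library with acetate, 68 to 99 with TGF-β1 and 79 to 114 in the control. Of the 10 genes, BATF3 alone had the acetate libraries above all others. Of the immune markers, CD68 was also highest with acetate (22.5 CPM, against 15 with TGF-β1 and 11.03 in the control). CD14 was not: it had 2.10 CPM with acetate, 0.259 with TGF-β1 and 2.27 in the control (TGF-β1 plus acetate against control, log2 fold change -0.11, adjusted p = 0.45), while PTPRC, CD3E and LYZ were not in the tables.

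MAFK, the more abundant of the 2 small MAF genes followed here (chr7:1530714-1543043), had 107, 94.3, 98.4 and 98.9 CPM with TGF-β1 plus acetate, 144, 166, 170.0 and 157 CPM with TGF-β1, and 100.9, 117.8, 113 and 108 CPM in the control. The TGF-β1 libraries stood above all others, and the acetate and control libraries overlapped. MAFK rose 1.45-fold after TGF-β1 (log2 fold change 0.54, SE 0.05, adjusted p = 1.6e-07) and was 1.59-fold lower with acetate than with TGF-β1 (log2 fold change -0.67, SE 0.05, adjusted p = 1.3e-08). Its level with acetate was called below control (log2 fold change -0.14, SE 0.05, adjusted p = 0.027). That call was lost with library totals (-0.10, adjusted p = 0.088) and without control library S3 (adjusted p = 0.069) or acetate library S23 (0.087) or S25 (0.053). The exons of MAFK share 809 bases, 18.1% of their length, with TMEM184A on the opposite strand, whose log2 fold changes were -0.38 after TGF-β1, -0.40 with acetate added and -0.79 for TGF-β1 plus acetate against control. After TGF-β1 the sign of TMEM184A was the opposite of that of MAFK, and in the other comparisons both were below 0. The part of reads shared with TMEM184A was not tested.

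MAFF, a small MAF known to respond to stress (chr22:38200767-38216511), was low and went the other way after TGF-β1. It had 2.72, 3.22, 3.24 and 2.86 CPM with TGF-β1 plus acetate, 2.5, 2.57, 3.18 and 3.19 CPM with TGF-β1, and 4.03, 4.23, 4.47 and 3.82 CPM in the control. Both treated groups lay below the control and overlapped each other. MAFF fell 1.43-fold after TGF-β1 (log2 fold change -0.52, SE 0.11, adjusted p = 4.3e-04) and was 1.37-fold below control with acetate (log2 fold change -0.45, SE 0.11, adjusted p = 8.3e-04). For acetate against TGF-β1 the interval ran from -0.18 to 0.34 on the log2 scale (adjusted p = 0.58). The other small MAF gene, MAFG, averaged 59.9 ± 2.39 CPM with TGF-β1 plus acetate, 58.4 ± 1.41 with TGF-β1 and 110.9 ± 2.89 in the control (SD, n = 4 each), and fell after TGF-β1 (log2 fold change -0.92, SE 0.03, adjusted p = 4.9e-13).

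Set side by side, JUN, JUNB and FOSL2 were called higher with TGF-β1, lower when acetate was added and still higher than control with both. MAFK was called higher and then lower, and ended slightly below control, as given above. ATF3 showed the mirror image, with a fall after TGF-β1, a rise on addition of acetate and a level that remained below control. FOSL1 and MAFF fell after TGF-β1 and had no call for acetate. JUND was called lower in all 3 comparisons, subject to the settings above. BATF3 had no call for TGF-β1 against control and was higher in both comparisons with acetate, and FOS was called in the comparison of acetate added to TGF-β1 only.

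Levels between genes were compared per kilobase of exon. JUNB was highest in every group, at 96.4 ± 5.38 CPM per kb with TGF-β1 plus acetate, 132 ± 7.46 with TGF-β1 and 48.7 ± 2.59 in the control (SD, n = 4). With acetate, FOSL2 (26.4 ± 1.18), MAFK (22.4 ± 1.19), JUN (18.9 ± 0.860), JUND (12.5 ± 1.22), FOSL1 (5.06 ± 0.354) and BATF3 (1.71 ± 0.168) followed in that order with no overlap between neighbours. ATF3 (0.779 ± 0.0715), FOS (0.603 ± 0.0443) and MAFF (0.536 ± 0.0463) came last, and the last 2 overlapped.

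With TGF-β1 the same order held down to BATF3, FOSL2 at 40.3 ± 0.755, MAFK at 35.7 ± 2.59 and JUN at 23.1 ± 1.64 CPM per kb. BATF3, MAFF, ATF3 and FOS then lay between 0.408 and 0.697 CPM per kb, with overlaps between neighbours except BATF3 and MAFF. In the control MAFK (24.7 ± 1.65) came before FOSL2 (20.9 ± 1.28) and JUND (20.3 ± 0.600), with overlaps between both pairs of neighbours, and JUND ranked above JUN (10.8 ± 0.312). ATF3 reached 3.26 ± 0.463 in the control, fully above BATF3 (0.738 ± 0.0684), MAFF (0.737 ± 0.0494) and FOS (0.543 ± 0.0731). Read over the longest transcript in place of all exons, MAFK ranked above FOSL2 in each group. On that scale ATF3 had 1.496 CPM per kb with acetate, 0.965 with TGF-β1 and 6.27 in the control.

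**Figure D4:**
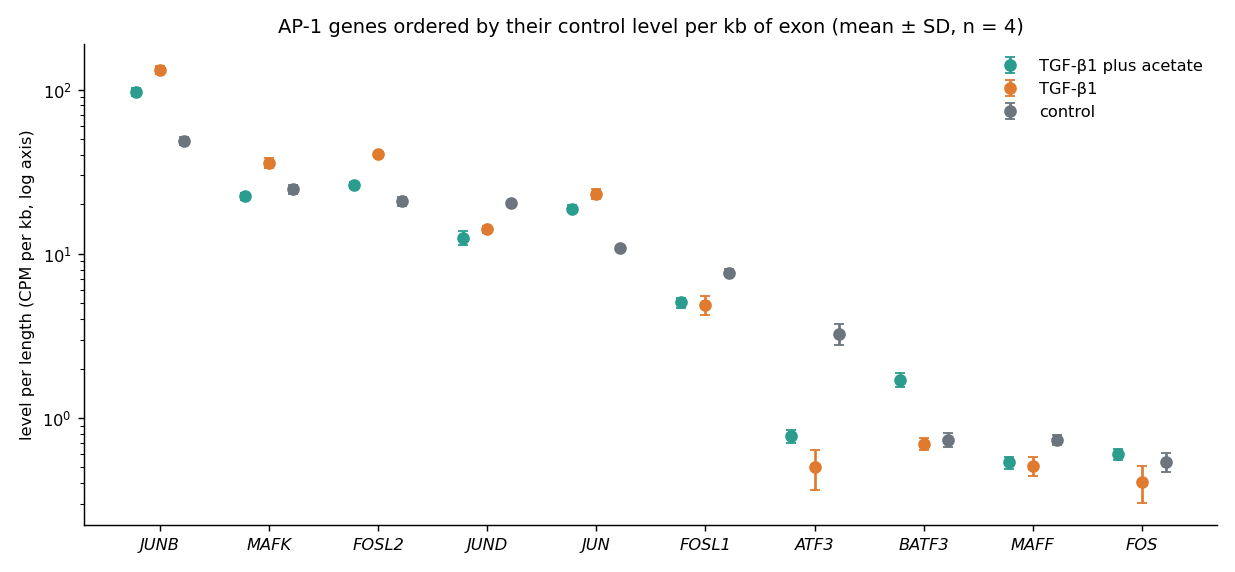
Level per kb of exon (vertical log axis, CPM per kb) of the 10 AP-1 genes ordered by their control level; points are means and bars SD of 4 libraries, with TGF-β1 plus acetate left, TGF-β1 in the middle and control right for each gene. JUNB is the top gene in all 3 groups, and ATF3 has 0.779 CPM per kb with acetate and 0.502 with TGF-β1, against 3.26 in the control.

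For each gene, the protein-coding genes with the most similar pattern were found by Pearson's r of log2(CPM + 0.5) over the 12 libraries among 10698 genes at or above the median level. These libraries fall into 3 groups, so r mainly follows the group means and is given as a description. JUN was most like FBLN1 (r = 0.995) and SULF2 (0.994), and JUNB like FSTL3 (0.997) and FAM89B (0.996), while JUN and JUNB had an r of 0.992 with each other. FOSL2 was closest to ITPKB (0.996) and LIMK2 (0.995), and MAFK to TNFRSF12A (0.983) and then JAG1. ATF3 was closest to RIPK2 and DUSP6 (0.990 each). DUSP6, a phosphatase that switches off ERK, averaged 6.75 CPM with TGF-β1 plus acetate, 5.24 with TGF-β1 and 17.9 in the control. BATF3 was closest to ENO2, a glycolytic enzyme, and SLC4A11, a membrane transporter (0.988 each), and ENO2 averaged 40.8 CPM with acetate, 15.8 with TGF-β1 and 15.7 in the control. JUND was closest to ARFRP1 and NFKBIL1 (0.983 each), FOSL1 to MARK2 (0.964) and FAM120C (0.963), and MAFF to C9orf85 (0.978) and RNF121 (0.965). FOS had the lowest best match, GIGYF2 (0.921), followed by CXorf23 (0.881).

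Other genes of the pathway were taken from lists by function. Their counts stand beside the shares of all tested genes. These were 34.1% higher and 32.8% lower after TGF-β1, and 33.3% higher and 30.4% lower with acetate added. For TGF-β1 plus acetate against control they were 36.1% higher and 34.4% lower. Some counts lay near these shares, and no list was tested as a whole. Of 10 further AP-1 and MAF genes tested after TGF-β1, 4 rose and 6 fell. MAF, a large MAF factor with an activating domain, rose to 29.5 CPM with TGF-β1, against 1.00 CPM in the control (log2 fold change 4.89, SE 0.08, adjusted p = 6.5e-18), and had 13.8 CPM with acetate, below TGF-β1 (log2 fold change -1.09, adjusted p = 3.9e-11). FOSB, the remaining FOS gene, had 2.17 CPM with acetate, 2.48 with TGF-β1 and 0.378 in the control, and rose after TGF-β1 (log2 fold change 2.71, SE 0.20, adjusted p = 3.6e-09) with no call for acetate (-0.18, adjusted p = 0.23). JDP2, which represses AP-1 as a partner of JUN, had 8.72 CPM with acetate, 12.4 with TGF-β1 and 27.6 in the control, and fell after TGF-β1 (log2 fold change -1.14, adjusted p = 1.2e-07). With acetate added to TGF-β1, 1 of 9 tested was higher and 3 were lower, and against control 4 of 10 were higher and 5 lower. The gene called higher with acetate was MAFA (2.82 CPM with acetate against 0.471 with TGF-β1, log2 fold change 2.60, adjusted p = 3.1e-09).

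The list of small MAF partners also holds KEAP1, which is not such a partner. This list gave 2 higher and 3 lower of 6 tested after TGF-β1, and 4 and 2 of 7 with acetate added. For TGF-β1 plus acetate against control it gave 1 and 4 of 7. KEAP1 itself was among those called higher after TGF-β1 and lower in the other comparisons. NFE2L2, which encodes NRF2, had 46.4 ± 1.62 CPM with TGF-β1 plus acetate, 43.8 ± 0.980 with TGF-β1 and 94.3 ± 1.09 in the control (SD, n = 4 each; TGF-β1 against control, log2 fold change -1.10, adjusted p = 2.8e-14). KEAP1, its inhibitor, had 29.7 ± 2.08 CPM with acetate, 66.1 ± 5.47 with TGF-β1 and 46.8 ± 0.998 in the control, and was lower with acetate than with TGF-β1 (log2 fold change -1.14, adjusted p = 1.7e-10). NFE2L3 was higher with acetate than with TGF-β1, with 37.5 CPM with acetate against 18.3 with TGF-β1 (log2 fold change 1.05, adjusted p = 1.2e-09).

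Of 14 CREB/ATF and C/EBP genes, whose proteins pair with ATF3 or bind the elements printed above, 3 rose and 8 fell after TGF-β1, and 3 were higher and 10 lower both with acetate added and against control. The median log2 fold change of the list was -0.44 after TGF-β1, -0.42 with acetate added and -0.50 for TGF-β1 plus acetate against control. The 3 higher against control became 0 without control library S3 or acetate library S25. CREM, a responder to cyclic AMP, stood out at 32.3 ± 0.528 CPM with TGF-β1 plus acetate, 77.5 ± 1.87 with TGF-β1 and 30.4 ± 0.775 in the control (log2 fold change 1.36 after TGF-β1, adjusted p = 5.8e-15, and -1.26 with acetate added, adjusted p = 2.1e-13). DDIT3, a stress factor that pairs with C/EBP proteins, had 8.84 CPM with acetate, 11.4 with TGF-β1 and 69.01 in the control (TGF-β1 plus acetate against control, log2 fold change -2.97, adjusted p = 1.8e-15). CEBPB had 39.04 CPM with acetate, 37.7 with TGF-β1 and 93.3 in the control (TGF-β1 against control, log2 fold change -1.30, adjusted p = 1.8e-13).

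The kinases that act on AP-1 gave 10 higher and 7 lower of 20 after TGF-β1, 10 and 5 with acetate added, and 9 and 6 against control. With library totals the 10 higher after TGF-β1 became 5. MAPK3, which encodes ERK1, had 26.7 ± 1.63 CPM with TGF-β1 plus acetate, 16.7 ± 0.293 with TGF-β1 and 11.97 ± 0.405 in the control, with a log2 fold change of 0.69 for acetate added (adjusted p = 1.3e-08). MAP2K6, a kinase that switches on p38, was lower after TGF-β1 (log2 fold change -0.89, adjusted p = 2.4e-11) and higher with acetate added (0.73, adjusted p = 6.0e-09). Among 9 MAP kinase phosphatases, 3 rose and 5 fell after TGF-β1, 4 and 3 moved with acetate added, and 4 and 5 against control. DUSP10, which acts on JNK and p38, had 24.5 ± 0.730 CPM with TGF-β1 plus acetate, 49.0 ± 1.37 with TGF-β1 and 4.59 ± 0.279 in the control (log2 fold changes 3.43 and -0.99 for TGF-β1 and for acetate added, adjusted p = 5.5e-18 and 1.0e-11). DUSP4, which acts on ERK as well as JNK, showed the reverse, at 207 ± 9.80 CPM with acetate, 82.9 ± 4.23 with TGF-β1 and 288 ± 2.80 in the control (log2 fold changes -1.79 for TGF-β1 and 1.33 for acetate added, adjusted p = 4.3e-16 and 1.3e-12).

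Genes for turnover and inhibition of JUN and FOS gave 4 higher and 3 lower of 9 after TGF-β1, 1 and 5 with acetate added, and 4 and 4 against control. For acetate added, library totals gave 4 higher and 2 lower, and the 1 higher was 0 with DESeq2, limma-voom and RLE size factors. SIRT1, a deacetylase that can repress AP-1, was lower at each step, with 21.5 CPM with TGF-β1 plus acetate, 34.2 with TGF-β1 and 56.4 in the control (log2 fold change -1.39 against control, SE 0.04, adjusted p = 1.2e-15). DET1, part of a ubiquitin ligase that marks JUN for decay, had 6.66 CPM with TGF-β1 plus acetate, 9.46 with TGF-β1 and 15.7 in the control (log2 fold change -1.23 against control, SE 0.08, adjusted p = 4.4e-11).

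Of other immediate early genes, the class to which FOS, JUN and JUNB belong, 14 of 22 tested rose and 6 fell after TGF-β1, 7 of 23 were higher and 12 lower with acetate added, and 15 of 23 were higher and 7 lower against control. The list's median log2 fold change was 0.48 after TGF-β1, -0.15 with acetate added and 0.53 for TGF-β1 plus acetate against control, beside the values near 0 over all genes given above. CTGF, a matricellular protein, had 120 ± 17.2 CPM with TGF-β1 plus acetate, 153 ± 4.53 with TGF-β1 and 14.0 ± 1.24 in the control (log2 fold change 3.45 after TGF-β1, adjusted p = 5.7e-18). NR4A1, a nuclear receptor, was highest with acetate, at 32.8 ± 1.28, against 15.97 ± 1.09 with TGF-β1 and 9.15 ± 0.776 in the control (log2 fold change 1.05 for acetate added, adjusted p = 1.5e-10). PPP1R15A, a stress gene that restores translation, had 20 CPM with acetate, 19.95 with TGF-β1 and 88.7 in the control (TGF-β1 against control, log2 fold change -2.14, adjusted p = 2.1e-13).

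Among 17 tested genes known as AP-1 targets, 12 rose and 4 fell after TGF-β1, 9 were higher and 6 lower with acetate added, and 12 were higher and 4 lower for TGF-β1 plus acetate against control. The median log2 fold change was 0.95 after TGF-β1, 0.35 with acetate added and 1.42 for TGF-β1 plus acetate against control. IL11, a cytokine of the IL-6 family, had 375 ± 17.5 CPM with TGF-β1 plus acetate, 639 ± 35.6 with TGF-β1 and 70.55 ± 6.43 in the control (log2 fold change 3.18 after TGF-β1, adjusted p = 7.7e-17). MMP10, a matrix protease, was highest with acetate, with 9.14 ± 0.669 CPM, against 2.24 ± 0.122 with TGF-β1 and 0.257 ± 0.0625 in the control (log2 fold change 2.04 for acetate added, adjusted p = 2.9e-11). CD44, a hyaluronan receptor, also was higher with acetate added (637 CPM with acetate against 364 with TGF-β1, log2 fold change 0.81, adjusted p = 2.1e-11). The list holds genes that other factors drive as well, so that its counts describe these genes and not AP-1 activity.

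SMAD genes, receptors and cofactors gave 7 higher and 4 lower of 11 after TGF-β1, 2 and 4 with acetate added, and 6 and 4 against control. TGFBR1, a TGF-β receptor, had 669 ± 29.7 CPM with TGF-β1 plus acetate, 706 ± 24.96 with TGF-β1 and 119 ± 3.80 in the control (log2 fold change 2.57 after TGF-β1, adjusted p = 4.8e-18). SMAD3, which partners AP-1 on shared elements, had 89.4 ± 6.79 CPM with TGF-β1 plus acetate, 66.9 ± 1.04 with TGF-β1 and 172.5 ± 6.37 in the control, and fell after TGF-β1 (log2 fold change -1.36, adjusted p = 5.3e-15).

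**Figure D5:**
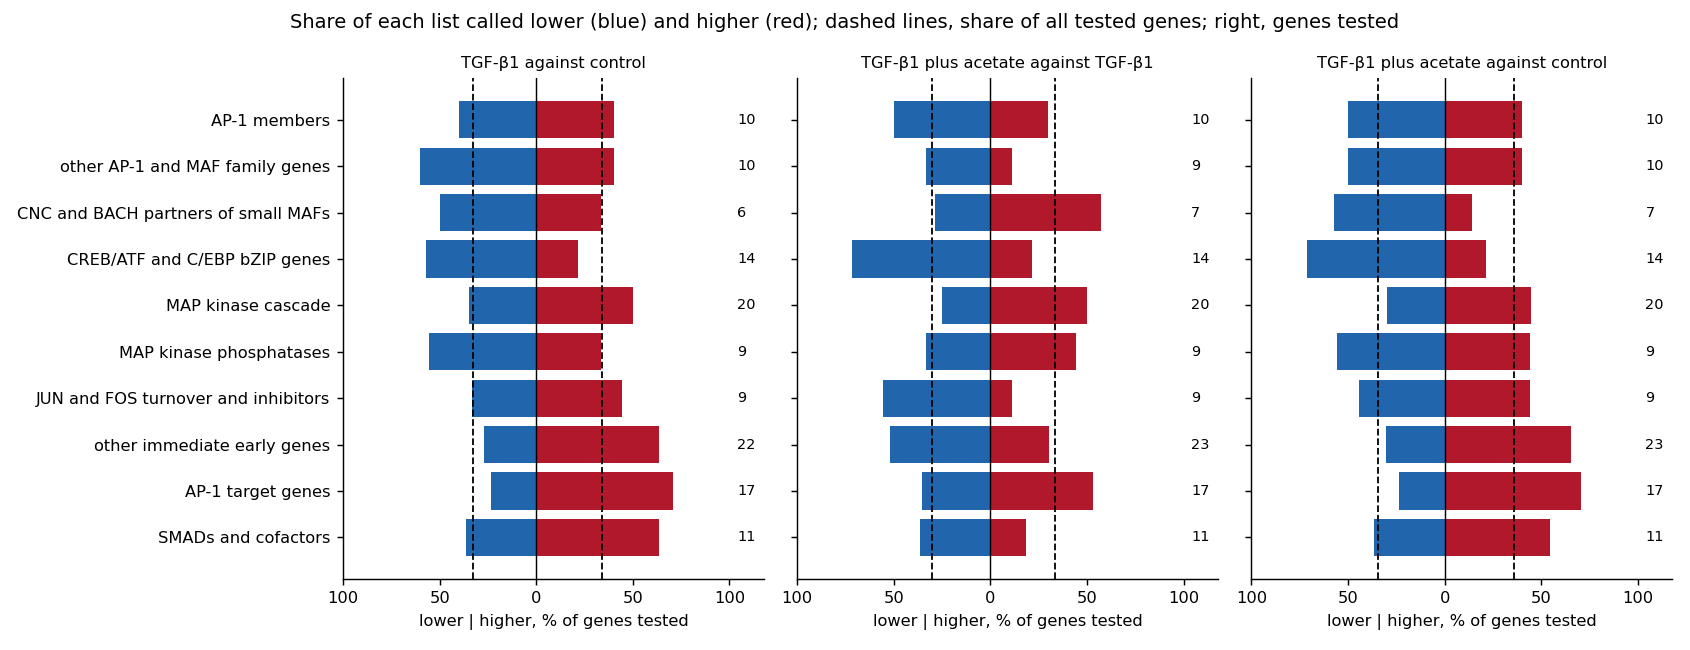
Share of the tested genes of each list (horizontal axis, percent) called lower (blue, to the left) and higher (red, to the right) in the 3 comparisons; dashed lines give the share of all tested genes and the numbers at the right the genes tested. Immediate early and AP-1 target genes have 14 of 22 and 12 of 17 called higher after TGF-β1, and CREB/ATF and C/EBP genes have 10 of 14 called lower with acetate.

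The scale matters for the smaller changes. With library totals in place of TMM factors, the median log2 fold change of all genes moved to -0.09 for TGF-β1 against control and to 0.16 for acetate added to TGF-β1. The split of calls for acetate added was then 9592 higher and 4699 lower (67.1% higher), against 7437 and 6792 (52.3% higher) with TMM. JUN was then -0.15 on the log2 scale for acetate added (adjusted p = 0.007), beside -0.29 with TMM.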

How the data were processed

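RNA of 12 A549 libraries was sequenced, per the labels' protocols, as stranded libraries depleted of ribosomal RNA, with paired reads of 75 bases from 2 ends. The submitters' processing notes name bcl2fastq, HISAT2, limma and build hg38. Neither tool versions nor the counter, how it treated strand, or its gene annotation are given in the sources used here. The authors deposited 2 tables (24459 and 24745 genes, 23771 in both) with raw counts per gene in 8 columns each. The authors' deposited log2 fold changes, p-values and q-values come from a model that no label states, and are cited only where named. A further 32 columns of values for single libraries, counted over both tables, were not used. The columns' codes match no sample label: the 4 columns with equal counts in both tables were placed as TGF-β1 (S15 to S18), those in the table of control and TGF-β1 as control (S1 to S4) and those in the other as acetate (S22 to S25).

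Counts were tested in R 4.3.3 with edgeR 4.0.16: filterByExpr (minimum count 10, minimum total 15), TMM factors, and a two-sided quasi-likelihood test with Benjamini-Hochberg adjustment over all genes tested, at a threshold of 0.05. TGF-β1 against control and acetate added to TGF-β1 were each fitted in their own table of 8 libraries, and TGF-β1 plus acetate against control in all 12 libraries. The code was tested on simulated data. Levels are CPM with TMM totals of the joint fit, and lengths are the union of exons in GENCODE 29, to which 99.1% of gene identifiers matched. Scaled by raw library totals, 3 counts equal at most 0.0865 CPM (counting error only). Alternatives were DESeq2 1.42.0, limma-voom (limma 3.58.1), RLE size factors, library totals, no filter, another set of libraries in the fit, and each library left out. No libraries of a group were duplicates, with a chi-square per degree of freedom of 3.95 to 17.1 between pairs. The 10 genes, the lists and the tests were chosen with earlier results of these data known. Besides the 10 genes, the rule names the 2 genes with the smallest p of each list in each comparison and the 2 most similar genes of each of the 10; some are left undescribed, and JDP2, FOSB and DUSP6 in comparisons beyond the rule were picked after their values were seen. Some genes of the lists are not reported here by name, although the counts over lists include them.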

Additional observations from a re-analysis of the deposited data

Results flagged for a closer look

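Among 30 sets of 4 libraries (10 genes in 3 groups), 3 had a library far from the other 3, where chance gives about 1 in 20. JUNB had 219.9 CPM in TGF-β1 library S15, against 245.4 to 247.9 CPM in the other TGF-β1 libraries. FOSL2 had 163.2 CPM in control library S1, against 144.4 to 145.4 CPM in the other control libraries. BATF3 had 1.656 CPM in TGF-β1 library S18, against 1.953 to 1.997 CPM in the other TGF-β1 libraries. The 3 cases concern 3 different libraries, and none of them turned a call of these genes when that library was left out.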

How the results depend on the processing

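No paired analysis was possible because the count columns carry no replicate numbers. Over the 10 genes, 446 of 460 fold changes under the alternatives stayed on the same side of the threshold, 5 passed it newly, 9 no longer passed it, and 0 of the called ones reversed. Among those never called, the fold changes of FOSL1 and MAFF for acetate against TGF-β1 reached -0.06 and -0.01, below 0, where their main values were 0.06 and 0.08. The 14 that differ are those given above for FOS, JUND and MAFK, and the cause was not tested. Of the counts of calls per list, 795 stayed within 1.5 times of the main count and 33 moved. Leaving out 1 library changed no call of JUN, JUNB, FOSL1, FOSL2, ATF3, BATF3 or MAFF. Shares per family moved with transcript length: with the longest transcript FOS made up 2.60% of the FOS family with TGF-β1 plus acetate, 1.25% with TGF-β1 and 2.56% in the control. Limits are the unlabelled columns, the missing group with acetate only, a single time point and low counts of FOS, BATF3 and MAFF. Levels of FOSB and MMP10 in the control and of MAFA with TGF-β1 were low too, so their fold changes rest on few reads.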
